A study of Mus musculus with 56 samples.

Results

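The genes described here are those to which 4 or more peaks with lower H2A.Z were assigned in mouse embryonic stem cells after doxycycline. They were chosen by counting rows per gene name in the authors' list of lower peaks, and 15 genes that reach the count were left out by name because they or their families (Fox, Wnt, Zfp, Kcn and protocadherin names among them) are set aside. The count left 156 of the 6690 genes with a lower peak (2.33%), which together hold 709 of the 9077 lower peaks (7.81%). Of the 156, 103 had 4 lower peaks, 32 had 5, 12 had 6, 7 had 7 and 2 had 8. By the annotation 134 are protein-coding, 20 are non-coding RNA genes, 1 is a pseudogene and 1 a snoRNA gene.

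The 4 doxycycline libraries came from cells of the line RHKI(E14Tg2a), a mouse embryonic stem cell line with an HA-Rnaseh1 knock-in, after 500 ng/ml doxycycline for 48 hours, and the 4 control libraries came from the same line without it. Treated and control cells alike carry the knock-in and were cultured in 2i/LIF, a medium of NDiff 227 and LIF with FBS at 2% and the inhibitors PD0325901 (of MEK, at 1 µM) and CHIR-99021 (of GSK3, at 3 µM). Every library named by a label is of this 1 line, so an effect of doxycycline itself and one of the induced protein cannot be told apart here. H2A.Z was mapped by CUT&Tag, in which an antibody directs a transposase to the protein on chromatin and the tagged DNA is sequenced. The series has 56 libraries for 10 targets, IgG included, and the 48 libraries of other targets are not analysed here. Nothing in the H2A.Z files measures gene expression, R-loops or the induced protein, and nothing in them allows the cell type to be checked against its markers.

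H2A.Z is a variant of histone H2A that is placed into nucleosomes next to transcription start sites (TSSs) and at enhancers, and in embryonic stem cells it is known for marking the promoters of developmental genes together with Polycomb proteins. RNase H1 cuts the RNA strand of RNA:DNA hybrids, the core of R-loops, which form readily where the transcribed strand is rich in C and the RNA in G. L1Md elements are LINE-1 retrotransposons of the mouse, and L1Md_T, L1Md_A and L1Md_Gf are among the youngest subfamilies, some copies of which can still move.

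The files hold a set of 61420 H2A.Z peaks on GRCm38, a list of 9077 lower peaks (14.8% of the set) and a list of 318 higher peaks (0.518%), and every listed peak is found in the set with the same start and end. Lower and higher are read from the names of the lists as doxycycline relative to control. The lists name peaks and carry neither sizes of change nor values of single libraries. Depth is therefore unknown, as is how far replicates differ, and everything that follows is a description of peaks that were called lower, without a test. Intervals are exact 95% Clopper-Pearson intervals that cover the counting of peaks alone. Peaks of a gene are not independent, and the intervals do not allow for this. The list gives each peak to the gene with the nearest TSS, and states separately whether the peak lies in a promoter, an untranslated region (UTR), an exon, an intron, at a transcript's end or outside all transcripts (intergenic).

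The 2 genes with 8 lower peaks were Nol4l, a relative of the nucleolar protein gene Nol4, and Slc22a12, the gene of the renal urate transporter URAT1. At Nol4l the lower peaks ran over 120.2 kb of chromosome 2, with 5 in introns of the gene and 3 intergenic. One of the 5, 5129 bp wide, was centred 1.05 kb from a TSS. At Slc22a12 they ran over 191 kb of chromosome 19, with 1 of 6437 bp at the promoter, 1 in an intron of the neighbouring neurexin gene Nrxn2 and 6 intergenic, and the farthest lay 127 kb from the TSS. The gene itself is 7.22 kb long, and 7 of its 8 lower peaks lay outside it. The 7 genes with 7 lower peaks were 5730507C01Rik, Coro2b, Gm13090, Gm14486, Septin9, Sik1 and Smad6. The 12 with 6 included 1700018B08Rik, 2410131K14Rik, A530013C23Rik, Bcor, Bmp7, Kctd15, Mdga1, Onecut3, Pdxk-ps, Rprl2 and Wscd2.

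**Figure D1:**
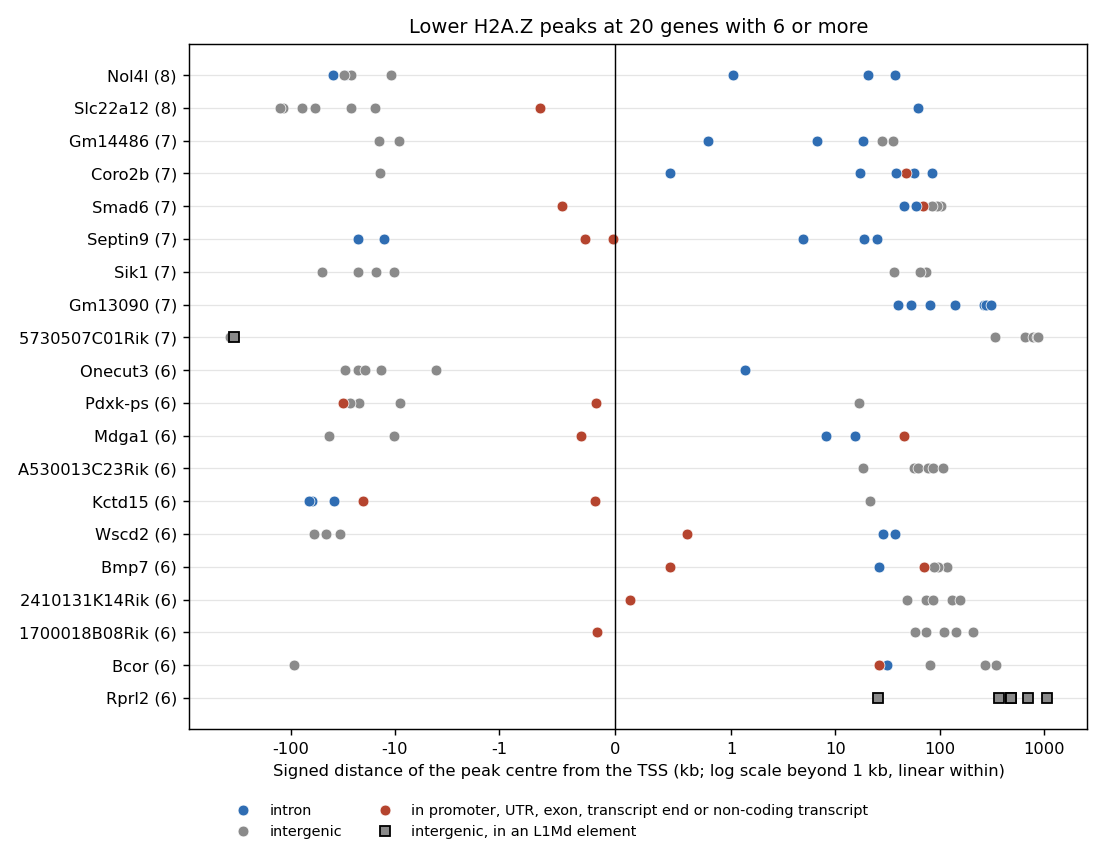
Each point is a lower H2A.Z peak at 1 of 20 genes with 6 or more, placed by the signed distance of its centre from the nearest TSS of the gene (kb, log scale beyond 1 kb, negative upstream), with the number of lower peaks beside the name. Few points lie near the line at 0, and most peaks lie beyond 10 kb on either side. The 6 squares of Rprl2 are all in L1Md elements.

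Promoters that lay whole inside a lower peak were by the median richer in CpG than promoters at large. The following stretches are the 250 bases before the start at the 5 genes with most lower peaks whose promoter window lies within a lower peak, shown so that the base composition can be read, from RefSeq on GRCm38.p6 and on the strand of the gene. Capitals mark each CG, a palindrome and so the same on both strands, and 94.6% of all 32851 RefSeq promoter windows of 300 bp hold at least 1.
Nol4l: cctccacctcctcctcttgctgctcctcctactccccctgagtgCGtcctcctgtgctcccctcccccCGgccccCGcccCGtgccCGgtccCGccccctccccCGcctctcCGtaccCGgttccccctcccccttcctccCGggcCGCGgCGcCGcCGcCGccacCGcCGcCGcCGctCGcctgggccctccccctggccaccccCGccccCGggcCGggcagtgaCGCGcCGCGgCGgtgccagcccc
Slc22a12: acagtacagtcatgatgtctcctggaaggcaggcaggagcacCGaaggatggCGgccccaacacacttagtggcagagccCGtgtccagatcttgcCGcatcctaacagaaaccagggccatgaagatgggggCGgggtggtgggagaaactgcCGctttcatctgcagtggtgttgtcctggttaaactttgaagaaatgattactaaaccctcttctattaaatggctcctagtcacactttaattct
Coro2b: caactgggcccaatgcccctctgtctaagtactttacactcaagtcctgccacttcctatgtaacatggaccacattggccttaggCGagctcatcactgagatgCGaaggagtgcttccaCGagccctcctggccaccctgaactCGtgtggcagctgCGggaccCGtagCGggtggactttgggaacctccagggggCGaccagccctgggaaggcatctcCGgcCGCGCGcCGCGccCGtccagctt
Septin9: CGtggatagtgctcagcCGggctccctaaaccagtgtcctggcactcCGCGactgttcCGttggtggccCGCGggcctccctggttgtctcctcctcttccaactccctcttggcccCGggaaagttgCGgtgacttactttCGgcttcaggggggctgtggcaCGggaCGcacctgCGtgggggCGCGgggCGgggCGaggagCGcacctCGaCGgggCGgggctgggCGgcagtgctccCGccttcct
Mdga1: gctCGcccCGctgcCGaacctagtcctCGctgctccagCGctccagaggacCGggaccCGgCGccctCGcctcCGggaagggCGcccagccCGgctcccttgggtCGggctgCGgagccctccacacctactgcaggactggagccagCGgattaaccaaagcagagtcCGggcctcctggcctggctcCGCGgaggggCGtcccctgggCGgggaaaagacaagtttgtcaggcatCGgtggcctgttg
The Nol4l stretch, chr2:153444480-153444729 on the minus strand, is 81.6% G or C with 29 CG and more C than G. That of Slc22a12, chr19:6543071-6543320 on the minus strand, is 50.8% G or C with 6 CG, a ratio of observed to expected CpG of 0.373. Coro2b, chr9:62537045-62537294 on the minus strand, has 62.0% and 15 CG, and Septin9, chr11:117199411-117199660 on the plus strand, has 69.6% and 23 CG. Mdga1, chr17:29887883-29888132 on the minus strand, has 70.4% and 21 CG. The 5 thus range from 6 to 29 CG in 250 bases, beneath peaks of 1102 to 6437 bp.

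Over 68 promoter windows of 56 of the genes, each within a lower peak, the median G and C content was 69.0% and the median ratio of observed to expected CpG was 0.772. For the 2908 windows of all other genes within a lower peak the medians were 64.7% and 0.729. Windows of other genes within a peak that is in neither list had 58.3% and 0.658, and all windows together 52.7% and 0.384. G exceeded C on the coding strand in 55.9% of the 68 windows and in 52.6% of all windows. Windows were matched by symbol for 111 of the 156 genes, and over all 169 windows of these genes the median G and C content was 63.3%.

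Most of the lower peaks at these genes were intronic or intergenic. Introns held 242 of 709 (34.1%, 30.6 to 37.8%) at the 156 genes and 2269 of 8339 (27.2%, 26.3 to 28.2%) at all other genes, a group that includes the 15 left out by name. Intergenic peaks were 299 of 709 (42.2%, 38.5 to 45.9%) at the 156 genes and 28.3% at the others. Promoter peaks were 48 of 709 (6.77%, 5.03 to 8.88%) at the 156 genes and 19.9% at the others, and exon peaks 11.0% and 16.4%. The shares move with the number of lower peaks per gene, by which the genes were chosen, and of the genes with exactly 1 lower peak 25.5% had it in a promoter. Introns held 34.6% at genes with exactly 3 lower peaks and 25.7% at those with exactly 1. A promoter peak was present in 44 of the 156 genes, and a promoter or 5′ UTR peak in 60.

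**Figure D2:**
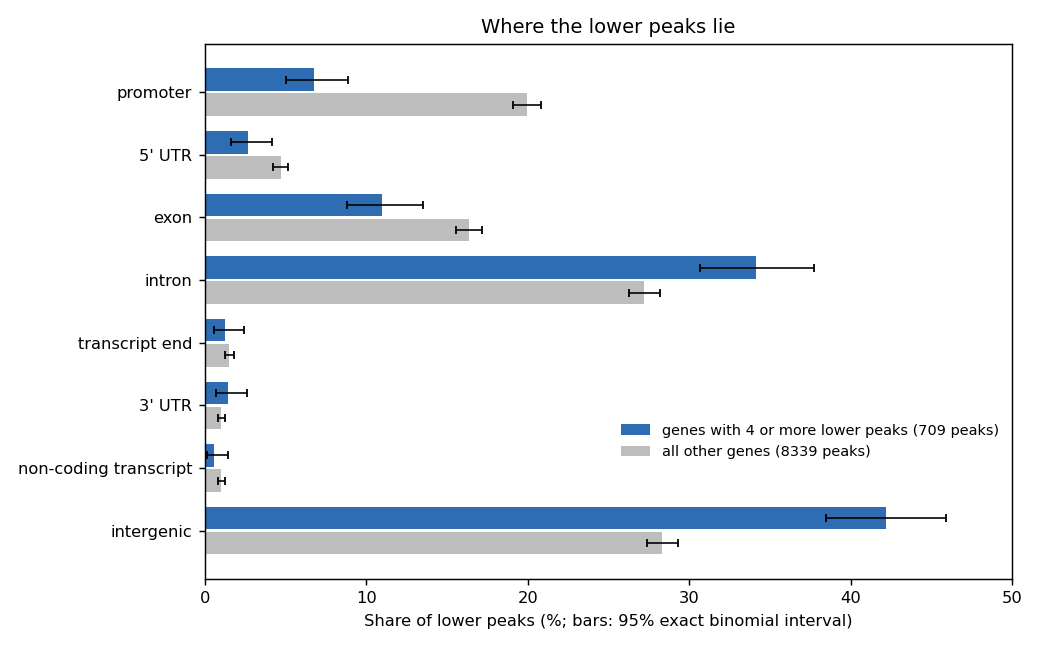
Share of lower peaks in each annotation class (%) at the 156 genes (upper bar of each pair) and at all other genes (lower bar), with 95% exact binomial intervals. The intergenic share is 42.2% at the 156 genes and 28.3% at the others, and the promoter share 6.77% and 19.9%.

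The median distance of a lower peak from the TSS was 22.1 kb at the 156 genes (interval of the median 19.6 to 24.8 kb) and 4.54 kb at the others. Within 10 kb lay 30.7% of the lower peaks of the 156 genes and 60.4% of those of the others. They lay upstream of the TSS in 37.8% and 36.3%. Of the intron peaks inside the named gene, 85 of 181 (47.0%, 39.5 to 54.5%) were in the first intron at the 156 genes and 57.6% (55.3 to 59.9%) at the others. Distance and first-intron share also move with the number of lower peaks, by which the genes were chosen. At genes with exactly 3, the median distance was 14.1 kb, with 42.8% within 10 kb and 45.4% in the first intron. At genes with exactly 1 these values were 0.935 kb, 68.8% and 64.1%. Widths had medians of 1019 bp (936 to 1058) at the 156 genes and 1036 bp (1025 to 1050) at the others. A CpG island was named for 56 of the 541 intron and intergenic peaks of the 156 genes (10.4%) and for 14.3% of those of the others. The share was 10.5% at genes with exactly 3 lower peaks and 17.1% at genes with exactly 1.

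The span from the first to the last lower peak of a gene had a median of 67.4 kb (59.6 to 89.3) and ranged from 15.3 kb to 1288 kb. The narrowest was that of Ltbp3, which encodes a binding protein of latent TGF-β. Its 4 lower peaks lay 4.17 kb upstream of the TSS, in exon 2 over the 5′ UTR, in intron 5 and in exon 14, and no other H2A.Z peak lay between them. Next came Mir874 (17.3 kb), Pabpn1l (19.3 kb), Nrarp (19.5 kb), an inhibitor of Notch signalling, and Gadd45b (19.7 kb), a stress response gene. The widest were those of Snord14d (1288 kb), 5730507C01Rik (1253 kb), Celf4 (1114 kb), Rprl2 (1032 kb) and 2610316D01Rik (974 kb). The span exceeded the length of the gene at 103 of the 156, whose median gene length was 32.6 kb, against 19.6 kb for the other genes with a lower peak. The median gap between neighbouring lower peaks was taken for each gene, and the median of these over the 156 genes was 12.9 kb. Of all 553 gaps, 123 (22.2%), in 89 genes, were under 5 kb.

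Between the first and last lower peak lay 1124 peaks of the set, of which 710 were lower (63.2%), 4 higher and 410 in neither list. The 2 outer peaks of each span are lower by construction, and without them 398 of 812 were lower (49.0%). The share of lower peaks in the whole set is 14.8%, but each span was chosen for holding lower peaks, so nothing is read from the difference. All set peaks in the span were lower at 49 genes, whose median span was 31.8 kb. The genes with 6 or more lower peaks where this held included Gm14486 (7 of 7 over 54.4 kb) and Onecut3 (6 of 6 over 32.0 kb). The share was lower at Slc22a12, with 8 of 19, 2410131K14Rik, with 6 of 15, Bcor, with 6 of 16, and Rprl2, with 6 of 21.

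**Figure D3:**
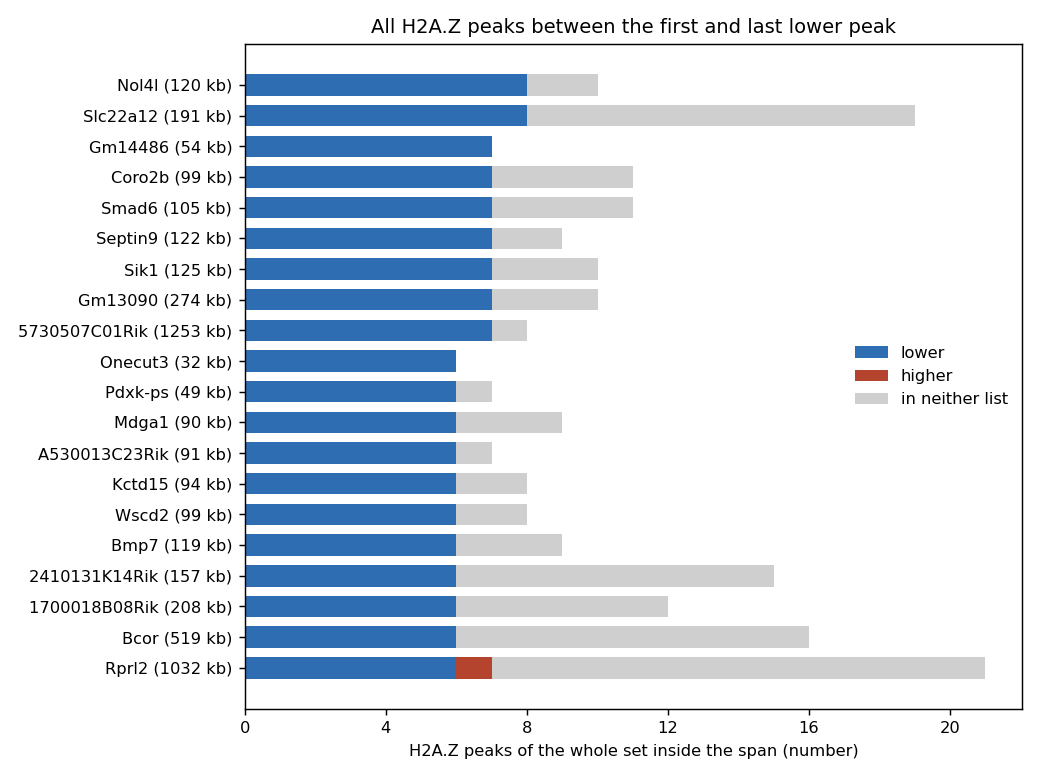
Number of H2A.Z peaks of the whole set between the first and last lower peak at 20 genes with 6 or more, split into lower, higher and in neither list, with the span in kb beside each name. Gm14486 and Onecut3 hold lower peaks alone, and Slc22a12 and Rprl2 hold more peaks in neither list than lower ones.

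Most L1Md peaks belonged to a few of the genes. Of 541 intron and intergenic lower peaks at the 156 genes, 52 (9.61%, 7.26 to 12.4%) were annotated to an L1Md element, against 909 of 4631 (19.6%, 18.5 to 20.8%) at the others. A similar share, 63 of 593 (10.6%, 8.26 to 13.4%), was found at genes with exactly 3 lower peaks. At genes with exactly 1 it was 20.8%. Filtering the peaks first changed which genes reached 4. The share was 5.45% at the 97 genes chosen without peaks of the minimum width of 501 bp. It was 0.248% at the 124 genes chosen from peaks within 100 kb of the TSS. Shares at other genes under these filters are not given. By subfamily 26 were L1Md_T, 19 L1Md_A, 4 L1Md_Gf, 2 L1Md_F and 1 L1Md_F2. Of the 52, 51 were intergenic and 1 was in an intron. They belonged to 16 genes, and 49 of them to 13 genes with 2 or more.

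The 13 had wide spans. Their median span was 766 kb, their median distance from the TSS 354 kb and their median peak width 722 bp. In their spans 56 of 171 set peaks were lower (32.7%). At the 140 genes with no L1Md peak the medians were 62.3 kb, 19.6 kb and 1043 bp, and 68.8% of the set peaks in the span were lower. L1Md elements accounted for every lower peak of 7 genes. These were Rprl2 with 6, Cox7c, a subunit of cytochrome c oxidase, and Snord14d with 5, and 2610316D01Rik, 4930474H20Rik, Rprl1 and Nbea with 4. Nbea, which encodes the neuronal scaffold protein neurobeachin, held 1 of its 4 in an intron, and the other 6 genes had no lower peak in their own transcripts. The lower peaks of 4930474H20Rik lay 1288 to 1827 kb from its TSS, and those of Rprl2 25.7 to 1057 kb. At Epha6, an Eph receptor gene, 3 lower L1Md peaks lay 125 to 764 kb upstream of the TSS and the fourth, of 2380 bp, covered the promoter. These 4 were the only H2A.Z peaks in 766 kb.

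**Figure D4:**
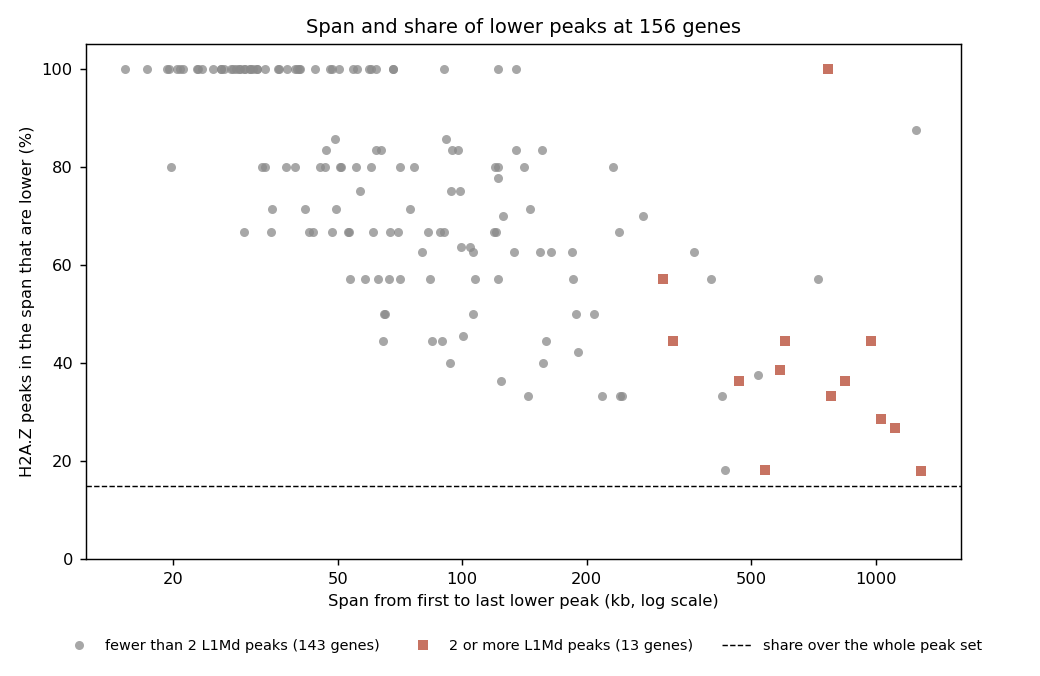
Span from the first to the last lower peak (kb, log scale) against the share of H2A.Z peaks in the span that are lower (%), 1 point per gene. The 13 genes with 2 or more L1Md peaks (squares) lie at 306 kb and above, and the dashed line is the share over the whole set, 14.8%. The 2 outer peaks of each span are lower by construction.

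Of the 13 spans over 500 kb, 3 belonged to genes with fewer than 2 L1Md peaks. 5730507C01Rik, an unnamed gene model on chromosome 12, had 7 intergenic lower peaks 340 to 874 kb from its TSS, of which 4 were annotated to CpG islands and 1 to an L1Md element, and 7 of the 8 set peaks in 1253 kb were lower. The gene model 1700030C10Rik on the same chromosome, chosen after its values were seen, had 4 lower peaks 105 to 619 kb from its TSS, all annotated to CpG islands. Bcor, which encodes a corepressor that works with Polycomb proteins, had 4 intergenic lower peaks 81.4 to 345 kb from the TSS, 1 in an intron and 1 at the end of a transcript.

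The gene that names a peak need not be the gene that the peak lies in. Of the 709 lower peaks, 314 (44.3%, 40.6 to 48.0%) lay in a transcript of the named gene, 95 (13.4%, 11.0 to 16.1%) in a transcript of another gene, 299 were intergenic, and 1 transcript could not be matched. At all other genes 57.5% lay in the named gene and 14.1% in another, so the share in another gene was near that at the 156. At 37 of the 156 genes no lower peak lay in a transcript of the gene itself. All 7 lower peaks of the small gene Gm13090 lay in introns of Camta1, a calmodulin-binding transcription activator gene, 39.5 to 312 kb from the Gm13090 TSS. Camta1 itself was named for 4 more. All 4 lower peaks of Mir874 lay in Klhl3, an adaptor of a ubiquitin ligase, and all 4 of Pabpn1l in Cbfa2t3, a transcriptional corepressor. At Kctd15, an inhibitor of AP-2 transcription factors, 1 peak was at the promoter, 1 was intergenic and 4 lay in the sulfotransferase gene Chst8. Chosen after their values were seen, Dsn1 and Otub1 are further examples, with lower peaks in Soga1 and Macrod1.

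When lower peaks were instead counted within the bounds of RefSeq protein-coding genes, a choice added after the data were seen, 113 genes held 4 or more under the same name rule, and 45 of them are among the 156. Of the 134 protein-coding genes, 24 held no lower peak within their bounds. Camta1 held 9 lower of 17 set peaks by this count and Macrod1, a mono-ADP-ribosyl hydrolase gene, 9 of 12. Nfix, a nuclear factor I gene, held 7 of 9, although the nearest-TSS list names it for 0.

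By role, 101 of the genes could be placed in 8 groups, a sorting made by hand from textbook functions after the genes were known, and 55 were left unplaced. Transcription factors were the largest group, with 23 genes and 98 lower peaks, a median span of 101 kb and 53.1% of peaks in the named gene. Each of the 23 had at least 1 lower peak in its own transcript. So had all 8 cofactors and chromatin regulators, all 14 ligands, receptors and modulators and all 9 synapse genes. Of the 37 genes among the 156 with no such peak, 30 were left unplaced. Onecut3, a cut-homeobox factor of the nervous system, had 5 of its 6 in the 29.9 kb upstream of its TSS and 1 in its intron. Emx1 and Tbr1, factors of the developing cerebral cortex, had 4 of 4 set peaks lower over 39.4 kb and over 48.3 kb, and 1 of the Emx1 peaks, 5456 bp wide, was centred 138 bp from the TSS. Of the 4 Emx1 peaks, 1 lay in a transcript of Sfxn5. Tbx21, the T-box factor of type 1 helper T cells, had 4 of 4 over 29.8 kb with 3 in exons. Rxra, the retinoid X receptor α, had 5 of 8 over 134 kb. Lower peaks were thus packed closely at some factors and spread out at others, down to 4 of 22 over 431 kb at Sall3, a spalt zinc finger gene chosen after its values were seen.

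The 8 cofactors and chromatin regulators had 37 lower peaks, 48.6% of them intergenic. Maml3, a coactivator of Notch, had 3 in its own transcript and 4 of 5 set peaks lower over 76.6 kb.

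The 14 ligands, receptors and their modulators had 64 lower peaks with a median span of 105 kb. Bmp7, a bone morphogenetic protein, had 1 over exon 1, of 2273 bp, 1 in intron 2, 1 in the 3′ UTR and 3 beyond the gene, 87.3 to 118 kb downstream of the TSS, together 6 of 9 set peaks. Smad6, the inhibitory Smad of BMP signalling, had 1 at its promoter, 2 in intron 3, 1 in exon 4 and 3 beyond the gene, 84.8 to 103 kb away, together 7 of 11. Fgfr1, an FGF receptor, had 5 of 8 over 106 kb, and Efnb1, an ephrin ligand, 4 of 5 over 122 kb. Mfng, a glycosyltransferase that modifies Notch, had 4 of 4 over 23.5 kb, 1 of them in an intron of Card10, and Nrarp had 4 of 4. Ptpru, a receptor tyrosine phosphatase, had 4 of 7 over 400.0 kb, and Grm4, a metabotropic glutamate receptor, 5 of 7 over 34.6 kb.

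Among 14 genes of intracellular signalling, with 64 lower peaks, Sik1, a salt-inducible kinase, had 7 intergenic ones on both sides of the gene, 10.1 to 73.6 kb from the TSS, and 7 of 10 set peaks were lower. Arhgef10l, a guanine nucleotide exchange factor, had 5 of 5, all in its own transcript. At Rap1gap, a GTPase-activating protein of Rap1, 6 of 8 set peaks were lower, 5 of them named for the gene and 1 for another. None of the 4 at Gadd45b lay in that gene, and 1 was in the 5′ UTR of the G protein gene Gng7.

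The 13 genes of cytoskeleton and muscle had most of their lower peaks inside the gene. Of their 63 lower peaks 52 (82.5%) lay in the named gene and 12.7% were intergenic, against 44.3% and 42.2% over all 156. Septin9, which encodes a filament-forming GTPase and appears in the list under a name turned into a date, had all 7 in its own transcripts. Of these, 2 were at promoters, 20 and 259 bp upstream of different TSSs, and 5 in introns, the widest of 6110 bp. Coro2b, an actin-binding coronin, had 5 in introns and 1 in an exon. Plec, which encodes the crosslinker plectin, had 3 at alternative promoters and 1 of 10218 bp centred in its last exon, and all 5 set peaks of its span were lower. The myosin genes Myh14 and Myo18a each had 4 of 5, with 1 of the Myh14 peaks in a transcript of 2310016G11Rik. Ank1 and Sptbn4, of the membrane skeleton, had 4 of 6 and 4 of 7.

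The 10 genes of adhesion and matrix had 45 of 55 set peaks lower in their spans (81.8%), with a median span of 39.9 kb. Each gene was chosen for 4 or more lower peaks, and the 2 outer peaks of each span are lower by construction. Nothing is read from this share, nor from such counts at single genes. Cspg4, the proteoglycan NG2, had 5 of 5, among them the widest lower peak of the 156 genes, 12160 bp, at chr9:56889678-56901837 and centred in intron 8. Mdga1, an adhesion protein of the synapse, had 6 of 9, with 1 at the promoter of 3635 bp, and Adam11 had 4 of 5. The 9 genes of synapse and excitability had 78.4% of their 37 lower peaks in the named gene. Scn8a, a voltage-gated sodium channel gene, had 5 of 8 over 154 kb, and Grid2ip, a partner of the glutamate receptor delta 2, 4 of 4 over 24.9 kb with 3 in exons. The 10 genes of transport and metabolism had 42.2% of their 45 lower peaks in the named gene, 17.8% in another gene and 40.0% intergenic. Among them Slc45a1, a sugar transporter gene, had 4 of 7 over 53.5 kb. The 55 genes left unplaced had 20.7% of their 256 lower peaks in the named gene, and 30 of them had none there.

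**Figure D5:**
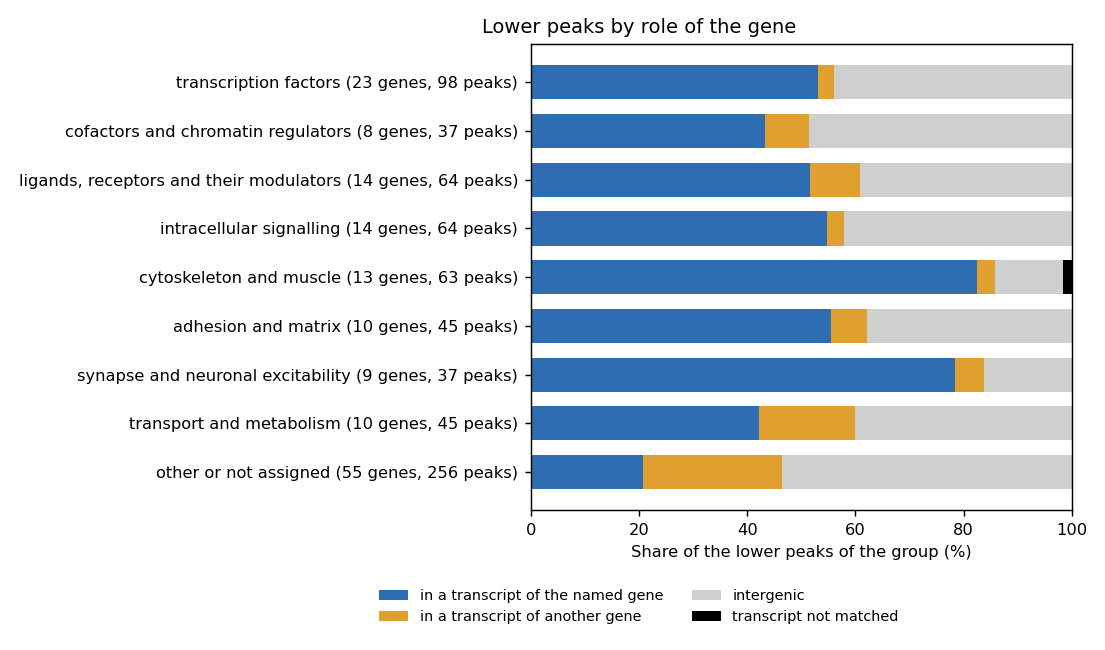
Share of lower peaks (%) that lie in a transcript of the named gene, in a transcript of another gene or outside all transcripts, for each role group, with the number of genes and lower peaks beside its name. The share in the named gene is 82.5% for cytoskeleton and muscle and 20.7% for the genes left unplaced.

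By the start of the symbol, 18 families were counted in the RefSeq table. The symbols cover each family in part, so the counts are of matched symbols and not of whole families. Over all genes of the table, 6339 had a lower peak and 156 of these (2.46%) had 4 or more and a name kept by the rule. Matched homeobox symbols outside Hox had 81 with a lower peak, of which 9 (11.1%) were among the 156. These were Onecut3, Emx1, Gbx2, Lhx2, Lhx5, Meis1, Pax2, Pitx1 and Prrx2, and the homeobox genes Barhl2 and Meox1, with 4 lower peaks each, were not matched. T-box, Gata and Sox symbols had 3 of 28, among them the antisense gene 1010001N08Rik (Gata6os). Matched symbols of the Notch pathway had 2 of 12, without Nrarp, which was not matched. Those of axon guidance had 3 of 44 and chromatin regulators 5 of 55. Matched basic helix-loop-helix symbols had 40 genes with a lower peak and none of them among the 156, but the list lacks Sim2, a factor of that class with 4 lower peaks. Cadherins outside protocadherins had 17 with a lower peak and none among the 156. Solute carriers had 2 of 138. These shares are given side by side without a test, and gene length was not taken into account.

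A higher peak was named for 5 of the 156 genes (3.21%, 1.05 to 7.32%) and for 83 of the 6534 other genes with a lower peak (1.27%, 1.01 to 1.57%). The 156 were chosen by the number of peaks named for them, so nothing is read from this difference. Celf4, an RNA-binding protein gene, Diaph2, a formin gene, Nbea and Rprl2 were named for 1 higher peak each and Rprl1 for 2. In all 5 genes 2 or more of the lower peaks were in L1Md elements. The spans of 4 of the 5 held 1 higher peak each, and these 4 were 0.356% of the 1124 set peaks in all spans, against 0.518% of the whole set.

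The threshold of 4 fell within a continuous range. The 283 genes with exactly 3 lower peaks under the same name rule had a median span of 37.2 kb (31.3 to 45.1), and the 103 with exactly 4 one of 60.2 kb (48.3 to 70.0). Intron peaks were 35.9% at 4 and 34.6% at 3, intergenic peaks 37.1% and 35.2%, and promoter peaks 6.31% and 11.0%. Just outside, Etv3l had 3 lower peaks over 7.50 kb and Gm32810 3 over 1619 kb. Just inside, Ltbp3 had 4 over 15.3 kb and Celf4 4 over 1114 kb.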

How the data were processed

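The authors deposited 1 set of H2A.Z peaks and lists of lower and of higher peaks, which hold other values than reads: positions, an annotation class and the distance to the nearest TSS. Per the file headers the lists were made with HOMER annotatePeaks on mm10. The tools named in the submitters' processing notes are deepTools, HOMER, Picard, Bowtie2 and Trimmomatic, with the build GRCm38. How peaks and changes were called, by which test and threshold and on single or pooled libraries, and the tools' versions, are not given in the sources used. The deposited peak score is 0 for every lower and higher peak and was not used. The 8 libraries (4 doxycycline, 4 control) were grouped from their labels.

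Lower peaks were counted per gene name, and 29 without a name were left out. Of the names, 10 had been turned into dates (19 peaks), and Septin9 was read through its Entrez ID. Transcripts were matched to genes through RefSeq accessions (GRCm38.p6). A set peak counted in a span if its centre lay there. The genes, families and roles were chosen with earlier results of these data known. Genes were named by a rule: 6 or more lower peaks, the 5 widest and 5 narrowest spans, the 5 with most L1Md, intron, intergenic and promoter, 5′ UTR and exon peaks, those with a higher peak, and 2 for each family. Some genes and a family that the rule names are not reported here. Medians have order-statistic intervals. Counts and spans were tested on simulated data. The software was matplotlib 3.10.9, SciPy 1.17.1, pandas 2.3.3 and numpy 2.4.6 under Python 3.11.15. The alternatives varied the threshold, names, neighbouring and narrow peaks, distance, averaging and assignment.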

Additional observations from a re-analysis of the deposited data

How the results depend on the processing

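Of 66 values under alternatives, 30 stayed within the counting interval (for a count of genes, within 1.5 times) and 36 moved; the 8 added after seeing the data are the assignment by gene bounds and leaving out genes with 2 or more L1Md peaks. With 5 or more lower peaks there were 53 genes, with 49.2% intergenic and 7.08% L1Md peaks, a median span of 99.0 kb and a median distance of 27.8 kb. With 3 or more there were 439, with 38.4% intergenic, 48.6 kb and 17.6 kb. Counting lower peaks under 5 kb apart as 1 left 92 genes, with 47.5% intergenic and 13.1% L1Md peaks, 56.9% of span peaks lower, 98.4 kb and 30.5 kb. Without peaks of the minimum width (501 bp) there were 97, with 38.0% intron, 38.0% intergenic and 5.45% L1Md peaks, 66.0% of span peaks lower and a median width of 1180 bp. With peaks within 100 kb of the TSS alone there were 124 genes. At these, introns held 38.9%, intergenic peaks 34.2% and L1Md elements 0.248%, with 73.0% of span peaks lower, 54.8 kb and 16.7 kb. Means over genes or peaks gave 73.3%, 157 kb, 1413 bp and 82.7 kb. Without the 2 outer peaks 49.0% of span peaks were lower. Without the 13 genes with 2 or more L1Md peaks, 38.3% were intergenic, 0.613% L1Md and 68.6% of span peaks lower. All promoters of the genes had 63.3% G and C. The cause of these shifts was not tested. No paired analysis was possible because the files give no value per library, and leaving out replicates was not run for the same reason.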

Other observations

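Some of the genes lay next to each other. The spans of lower peaks did not overlap, but 10 pairs, made of 18 genes, were under 100 kb apart. Cryaa, the αA-crystallin gene of the eye lens, and Sik1 were 13.5 kb apart on chromosome 17 and held 11 lower peaks together. On chromosome 2, A530013C23Rik, the phosphatase gene Ptpn1 and Ripor3 followed each other at 31.4 and 57.7 kb, and Gm14486, 1700001O22Rik and the homeobox gene Prrx2 at 77.4 and 43.1 kb. These pairs were chosen after their values were seen. Chromosome 2 held 19 of the genes, chromosome 4 held 17 and chromosome 11 held 16, and these chromosomes also held the most lower peaks, with 768, 681 and 837.

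Very wide lower peaks were few. Of the 709, 14 were wider than 5 kb (1.97%), against 1.64% at all other genes. Besides those of Cspg4 and Plec, the widest were an intergenic peak of 9347 bp, 92.5 kb from the Syf2 TSS, and one of 7147 bp that is named for Tmem115 and lies in the calcium channel subunit gene Cacna2d2. These peaks too were picked with their values known.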
